A study of Mus musculus with 20 samples.

Results

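Clusterin, a secreted chaperone, and a set of genes for the clearance of dying cells were followed across the response of the mouse ventral prostate to testosterone. The genes were clusterin (Clu), the bridging ligands Gas6, Pros1 and Mfge8, and the TAM receptors Axl, Mertk and Tyro3. All 7 were taken by symbol from a table of 43472 counted genes. All 7 were also among the 15261 genes tested, which reached 10 or more normalized counts in 5 or more of the 20 libraries. The lowest value of any of them in any library was 49.5 normalized counts, of Pros1, so none entered through a single group. Bulk RNA sequencing was done on ventral prostates of orchidectomised males in 4 groups of 5 libraries. These were ARNoC/Y males given testosterone, ARNoC/Y males given vehicle, wild type (WT) C57BL/6J males given testosterone and WT males given vehicle, each for 4 days. ARNoC/Y males (ARNoC below) have an androgen receptor mutated so that its N-terminal and C-terminal parts cannot contact each other. Every group was castrated, and neither the age of the animals, the testosterone dose nor the time between castration and treatment is given in the sources used here. Whether each library came from its own animal is not stated, so p-values reflect only the spread among these libraries, which may be technical.

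Clusterin binds misfolded proteins outside the cell, and 1 of its older names comes from the rat prostate, where it was described as a transcript that testosterone represses. Axl, Mertk and Tyro3 are receptor tyrosine kinases that do not touch a dying cell themselves. The vitamin K-dependent proteins Gas6 and protein S (Pros1) bridge them to phosphatidylserine, the lipid that dying cells expose. Gas6 can bind each of these receptors, while protein S is a ligand of Tyro3 and Mertk. Mfge8 binds the same lipid but bridges it to integrins. In the prostate, loss of androgen is followed by death of luminal cells and by their removal, and return of androgen by regrowth.

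The stretches just before the transcription starts of Gas6, Pros1 and Axl are shown because these ligand and receptor genes had lower mean levels with testosterone in both genotypes. RefSeq's promoter table (GRCm38.p6, the same build as mm10) matched 6 of the 7 genes. Each sequence is the 250 bases before the RefSeq start, read 5′ to 3′ on the strand of the gene. Capitals mark matches to the letters searched on both strands. The Gas6 stretch is chr8:13494536-13494785 on the minus strand, that of Pros1 is chr16:62854057-62854306 on the plus strand, and that of Axl is chr7:25788734-25788983 on the minus strand.
Gas6: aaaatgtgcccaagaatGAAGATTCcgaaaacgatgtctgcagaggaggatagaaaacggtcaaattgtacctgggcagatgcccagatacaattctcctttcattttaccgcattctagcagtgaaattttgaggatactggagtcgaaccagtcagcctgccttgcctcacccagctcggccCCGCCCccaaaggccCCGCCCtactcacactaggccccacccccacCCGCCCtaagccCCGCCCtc
Pros1: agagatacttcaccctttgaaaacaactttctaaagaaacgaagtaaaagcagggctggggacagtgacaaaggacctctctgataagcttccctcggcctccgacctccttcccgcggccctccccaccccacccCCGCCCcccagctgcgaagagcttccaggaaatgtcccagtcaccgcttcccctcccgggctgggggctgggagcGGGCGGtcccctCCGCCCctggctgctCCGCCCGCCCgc
Axl: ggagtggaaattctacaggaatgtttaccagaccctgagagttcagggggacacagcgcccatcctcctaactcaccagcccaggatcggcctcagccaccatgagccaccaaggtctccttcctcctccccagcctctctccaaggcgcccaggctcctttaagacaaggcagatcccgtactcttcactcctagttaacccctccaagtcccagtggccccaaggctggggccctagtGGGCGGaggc

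The androgen response element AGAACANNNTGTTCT, its single arm AGAACA and the AP-1 letters TGANTCA had no match in these 3 windows or in those of Mertk, Tyro3 and Mfge8. Among 32851 promoter windows of the same length in the table, 0.00913% held the full element, 16.1% the single arm and 6.75% the AP-1 letters. The heat shock letters GAANNTTC matched once in the Gas6 window, from base -233 to -226 before the start, and are held by 6.69% of all windows. The reverse arrangement TTCNNGAA matched once in the Mfge8 window, and is held by 7.17% of all windows. GC boxes (GGGCGG), which 32.7% of all windows hold, were found in each of the 6 windows. Gas6 and Mfge8 had 4 each, Pros1 had 5 of which 2 overlap, Mertk and Tyro3 had 3 each and Axl had 1. A match is a description of these letters and not a binding site.

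Libraries held 8861646 to 21600352 counts, and all 40 pairs of replicates within groups differed beyond sampling noise. Fkbp5, a glucocorticoid and androgen target used to check the treatment labels, averaged 9529 ± 1145 normalized counts with testosterone and 1693 ± 164 with vehicle in ARNoC prostates (SD, n = 5 each). In WT prostates it averaged 8575 ± 1195 with testosterone and 1567 ± 164 with vehicle. The tissue label fitted the luminal and seminal vesicle markers. The sum of 9 luminal markers lay between 47242 and 95433 normalized counts in every library, while 6 seminal vesicle markers summed to at most 50.7. The sum of 5 urothelial markers lay between 4081 and 13303, and its source was not tested. In each group 1 library had the lowest summed markers of both fibroblasts and myeloid cells. The fibroblast sums of these libraries were 8578 in ARNoC testosterone library 2, 5450 in ARNoC vehicle library 5, 4308 in WT testosterone library 2 and 7207 in WT vehicle library 2. The last 3 are called the fibroblast-poor libraries below, though WT vehicle library 2 was not the lowest of its group in smooth muscle markers. ARNoC testosterone library 2 was also the lowest of its group but was kept. Fits without the 3 therefore left out only a vehicle library in ARNoC, and a library of each treatment in WT prostates. This can shift the ARNoC values in 1 direction. The fibroblast-poor libraries stand apart from their groups in several of the genes described. Results that rest on them are given with and without them. In bulk tissue, fewer cells of a type and less RNA per cell cannot be told apart.

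**Figure D1:**
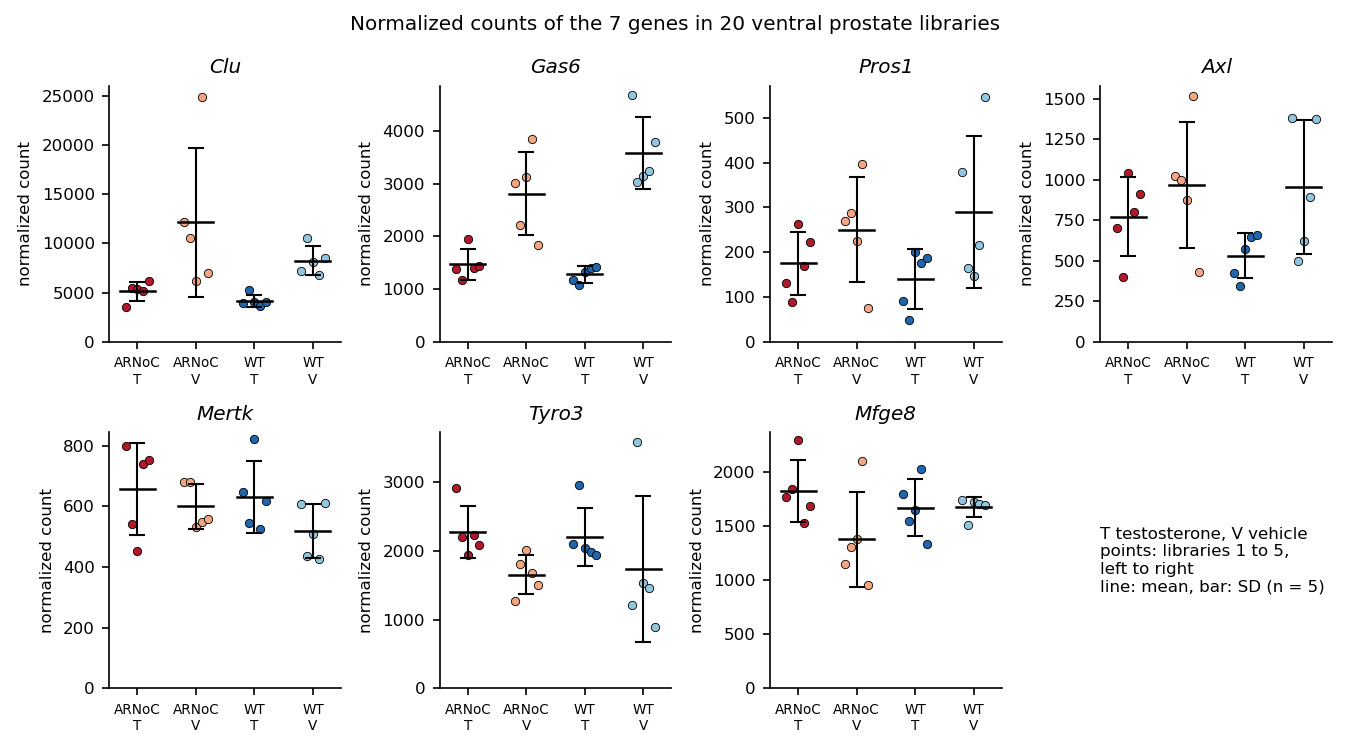
Normalized counts (linear axis from 0) of the 7 genes in each of the 20 libraries, with the mean and SD of each group of 5; groups run from ARNoC testosterone to WT vehicle. Clu and Gas6 stood highest in the vehicle groups, with Clu at 24943 in ARNoC vehicle library 4, and WT vehicle library 2 stands far above its group in Tyro3, at 3579.

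Clusterin fell with testosterone in both genotypes. Clu (chromosome 14, 65968483 to 65981547, plus strand, mm10) had 3512, 5445, 5395, 5185 and 6156 normalized counts in ARNoC prostates given testosterone. With vehicle, ARNoC prostates had 12171, 10546, 6157, 24943 and 6999. Every testosterone library lay below every vehicle library, though the nearest, at 6156 and 6157, almost touched, and ARNoC vehicle library 4 stood far above the rest of its group. The change was 2.35-fold lower, or -1.23 ± 0.27 on the log2 scale (SE; 95% interval -1.80 to -0.67; adjusted p = 0.00134 from edgeR's quasi-likelihood test). Without ARNoC vehicle library 4 it was -0.80 (adjusted p = 0.00282).

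WT prostates given testosterone had 3960, 5238, 4070, 3639 and 4004 normalized counts of Clu, against 7180, 10546, 8127, 6774 and 8570 in WT prostates given vehicle. These groups did not overlap either. The fall was 1.96-fold (log2 change -0.97 ± 0.27, interval -1.54 to -0.41, adjusted p = 0.00751). The fibroblast-poor WT vehicle library 2 had the highest Clu of its group, where it was lowest in Gas6 and Axl. Likewise WT testosterone library 2 was the highest of its group.

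Gas6, the ligand shared by the TAM receptors, also fell in both genotypes. Gas6 (chromosome 8, 13465374 to 13494490, minus strand) had 1387, 1169, 1953, 1392 and 1440 normalized counts in ARNoC prostates given testosterone, against 3021, 2220, 3126, 3850 and 1841 in those given vehicle. The groups overlapped at 1 point, where testosterone library 3 lay above vehicle library 5, so 4 of the 5 testosterone libraries lay below all vehicle libraries. The change was 1.90-fold lower (log2 change -0.93 ± 0.17, interval -1.29 to -0.57, adjusted p = 0.000274).

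In WT prostates Gas6 had 1166, 1069, 1326, 1410 and 1423 normalized counts with testosterone, against 4673, 3040, 3140, 3238 and 3796 with vehicle. No testosterone library exceeded 1423 and no vehicle library was below 3040. The fall was 2.78-fold (log2 change -1.47 ± 0.18, interval -1.84 to -1.11, adjusted p = 1.54e-06). The annotated exons of Gas6 share 34 bases with Tmem255b on the opposite strand, which had 96 counts over all libraries.

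Pros1, protein S, was the least abundant of the 7 genes and varied widely between libraries. Pros1 (chromosome 16, 62854307 to 62929346, plus strand) had 132, 89.0, 263, 169 and 223 normalized counts in ARNoC prostates given testosterone, against 269, 288, 224, 396 and 75.0 in those given vehicle. The groups overlapped, and the log2 change of -0.51 did not pass the threshold (adjusted p = 0.385). In WT prostates it had 90.8, 49.5, 200, 176 and 186 with testosterone, against 379, 165, 147, 217 and 546 with vehicle. These groups overlapped too, and the change of -1.03 ± 0.44 (interval -1.95 to -0.11) missed the threshold (adjusted p = 0.0702). It passed when WT vehicle library 2 (-1.17, adjusted p = 0.0467), WT vehicle library 3 (-1.20, adjusted p = 0.0439) or ARNoC vehicle library 5 (-1.03, adjusted p = 0.0428) was left out.

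Of the receptors, Axl was the 1 called with all 20 libraries, in WT prostates, and its call is fragile. Axl (chromosome 7, 25757273 to 25788705, minus strand) is a TAM receptor found on fibroblasts, vascular cells and some macrophages. It had 704, 398, 1043, 800 and 910 normalized counts in ARNoC prostates given testosterone, against 1026, 1001, 873, 1521 and 430 in those given vehicle. The groups overlapped and the log2 change of -0.32 ± 0.31 (interval -0.98 to 0.34) was not called (adjusted p = 0.456). In WT prostates it had 428, 345, 574, 646 and 660 with testosterone, against 1383, 502, 621, 892 and 1376 with vehicle. Again the groups overlapped, at vehicle libraries 2 and 3, and the fall was 1.78-fold (log2 change -0.83 ± 0.32, interval -1.498 to -0.16, adjusted p = 0.0452). The call ended in 9 of 20 fits that left out 1 library, with adjusted p up to 0.127. The libraries were WT vehicle 1, 4 and 5, WT testosterone 1, 2 and 3, and ARNoC vehicle 1, 2 and 3; the values without WT vehicle library 1 or 5 were both -0.66.

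Mertk, the TAM receptor that macrophages use to engulf dying cells, differed little between groups. Mertk (chromosome 2, 128698956 to 128802894, plus strand) had 798, 541, 454, 739 and 754 normalized counts in ARNoC prostates given testosterone, against 680, 680, 531, 548 and 558 in those given vehicle. In WT prostates it had 648, 546, 824, 524 and 619 with testosterone, against 607, 435, 510, 426 and 610 with vehicle. The groups overlapped in both genotypes. Log2 changes were 0.14 in ARNoC (adjusted p = 0.512) and 0.30 in WT prostates (interval -0.03 to 0.62, adjusted p = 0.140), and both turned negative when libraries were scaled by their totals alone (-0.21 and -0.13).

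Tyro3, a TAM receptor best known from the nervous system, had the highest mean level of the receptors per length of transcript in every group. Tyro3 (chromosome 2, 119797733 to 119818104, plus strand) had 2911, 2204, 1937, 2230 and 2085 normalized counts in ARNoC prostates given testosterone, against 1265, 1807, 2012, 1675 and 1511 in those given vehicle. Of the 5 testosterone libraries, 4 lay above all vehicle libraries. The log2 change of 0.47 ± 0.26 (interval -0.07 to 1.01) was not called (adjusted p = 0.172).

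In WT prostates Tyro3 had 2094, 2960, 2049, 1990 and 1936 normalized counts with testosterone, against 1214, 3579, 1535, 1458 and 898 with vehicle. The fibroblast-poor WT vehicle library 2 stood above every other library of the study, while the other 4 vehicle libraries lay below all 5 testosterone libraries. With all libraries the log2 change was 0.35 ± 0.26 (interval -0.19 to 0.89, adjusted p = 0.303). Without WT vehicle library 2 it was 0.80 (adjusted p = 0.000916), and the ARNoC value of 0.47 was then called as well (adjusted p = 0.0241). No ARNoC library was left out in that fit. The library is singled out by its Tyro3 value itself, so these p-values are a description and no independent test. Without all 3 fibroblast-poor libraries the changes were 0.44 in ARNoC (adjusted p = 0.0316) and 0.67 in WT (adjusted p = 0.00344). Under library totals alone the WT value with all libraries was -0.08.

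Mfge8, the integrin-binding bridge, was called in ARNoC prostates alone, and narrowly. Mfge8 (chromosome 7, 79133768 to 79149060, minus strand) had 1767, 1837, 2294, 1524 and 1685 normalized counts in ARNoC prostates given testosterone, against 1146, 1303, 1379, 2097 and 952 in those given vehicle. The groups overlapped, since vehicle library 4 lay above 4 of the testosterone libraries. The rise was 1.33-fold (log2 change 0.41 ± 0.16, interval 0.09 to 0.74, adjusted p = 0.0449). It kept its call only without ARNoC vehicle library 4 (0.61, adjusted p = 0.00097) or WT vehicle library 2 (0.41, adjusted p = 0.0483). It lost the call in the other 18 fits that left out 1 library, with values down to 0.27 (without ARNoC testosterone library 3) and adjusted p up to 0.210. Under library totals alone the value was 0.06.

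In WT prostates Mfge8 had 1794, 1542, 1649, 2025 and 1334 normalized counts with testosterone, against 1734, 1512, 1723, 1698 and 1694 with vehicle. The means were 1669 ± 260 and 1673 ± 91.0 (SD, n = 5 each), and the log2 change was 0.0044 (interval -0.32 to 0.33, adjusted p = 0.986). Its sign turned with most settings, and under library totals alone it was -0.42 (adjusted p = 0.0378).

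**Figure D2:**
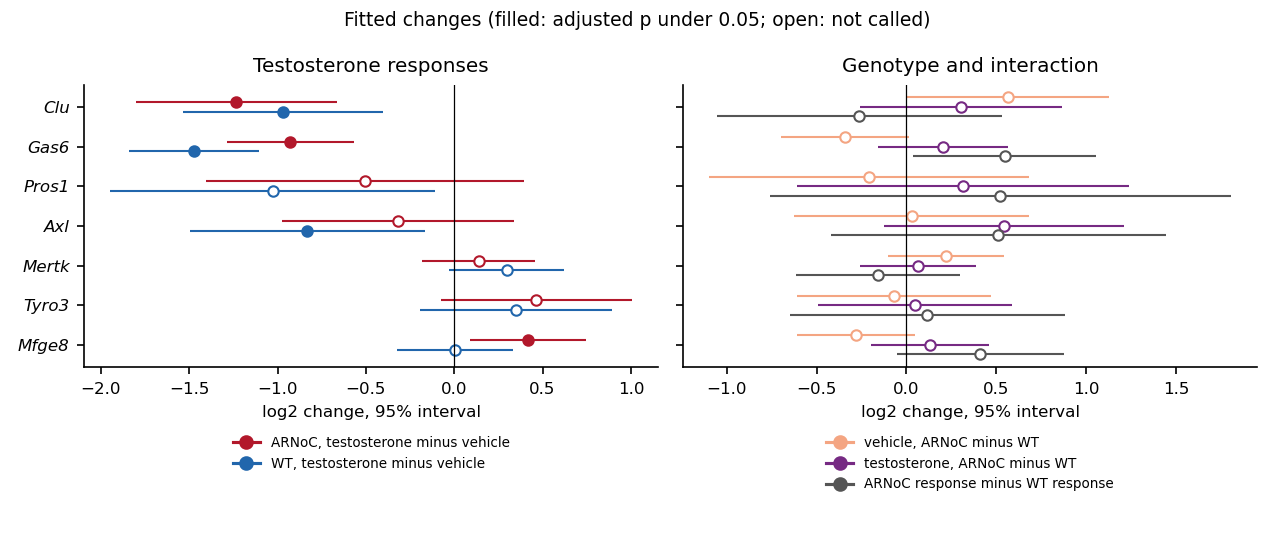
Log2 change (testosterone minus vehicle, within each genotype) of the 7 genes with 95% intervals from edgeR, with ARNoC above WT for each gene. The intervals of Clu and Gas6 lie below 0 in both genotypes, that of Axl in WT alone, and that of Mfge8 in ARNoC prostates lies above 0.

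Counted together, 1 of the 7 genes rose and 2 fell in ARNoC prostates, where 36.2% of all tested genes were called. In WT prostates 0 rose and 3 fell, where 39.2% of all tested genes were called. A share of 3 in 7 is near these backgrounds and is no result about the genes as a set. By direction, 19.4% of tested genes rose and 16.8% fell in ARNoC prostates, and 20.4% rose and 18.8% fell in WT prostates. The groups did not overlap for 1 gene in ARNoC (background 23.1%) and for 2 genes in WT prostates (background 27.0%). The median log2 change of the 7 genes was -0.32 in ARNoC and -0.83 in WT prostates, against -0.01 and -0.02 over all tested genes. Gas6 had a lower change than all but 6.78% of tested genes in ARNoC and 4.42% in WT prostates, and Clu than all but 3.74% and 9.10%.

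No gene of the 7 was called between the genotypes. With testosterone 0 of 7 were called between ARNoC and WT prostates, against 1.69% of all tested genes, and their log2 differences ran from 0.05 (Tyro3) to 0.54 (Axl). Axl averaged 771 ± 244 normalized counts in ARNoC and 531 ± 139 in WT prostates given testosterone (SD, n = 5 each), with 4 of the 5 ARNoC libraries above all WT libraries. Its interval was -0.13 to 1.21 (adjusted p = 0.458). With vehicle 0 of 7 were called, against 0.321% of all tested genes. Clu averaged 12163 ± 7561 in ARNoC and 8240 ± 1476 in WT prostates given vehicle, a log2 difference of 0.56 (interval 0.00 to 1.12, adjusted p = 0.664). That value was 0.13 without ARNoC vehicle library 4.

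The testosterone response itself was not shown to differ between genotypes for any of the 7 genes. The difference, ARNoC response minus WT response, was tested as an interaction, in which 0 of 7 genes and 0% of all tested genes were called by edgeR. At an unadjusted p under 0.05 it held 1 of the 7 genes and 1306 tested genes (8.56%), while DESeq2 called 24 genes, limma-trend 1 with a pseudocount of 1 and 0 with 5, and limma-voom 0. That gene was Gas6, whose fall was smaller in ARNoC prostates by 0.55 on the log2 scale (interval 0.04 to 1.05, adjusted p = 0.547). For Clu the difference was -0.26 (interval -1.05 to 0.53), and 0.17 without ARNoC vehicle library 4. For Axl it was 0.51 (interval -0.42 to 1.44) and for Mfge8 0.41 (interval -0.05 to 0.87). These intervals are wide, so the call of Axl in WT alone and of Mfge8 in ARNoC alone does not show that the genotypes differ.

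Levels were compared between genes as normalized counts per kilobase of merged exons, in the order ARNoC testosterone, ARNoC vehicle, WT testosterone and WT vehicle. Clu had a mean level of 1495, 3539, 1217 and 2397 per kilobase, the highest of the 7 genes, and did not overlap with the next gene in any group. Gas6 followed at 576, 1103, 502 and 1404 per kilobase. It stood clear of the gene below it in both vehicle groups and overlapped with it in both testosterone groups.

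Mfge8 was at 388, 293, 355 and 356 per kilobase, and Tyro3 at 367, 267, 356 and 280. Libraries of Mfge8 and Tyro3 overlapped in every group, so their order is not settled. Libraries of Tyro3 also overlapped with those of Axl in both vehicle groups, and Axl was the higher of the pair in WT vehicle libraries 1 and 5 and ARNoC vehicle library 4. Axl was at 153, 193, 105 and 190 and Mertk at 152, 138, 146 and 119, and these neighbours also overlapped in every group. Pros1 was the lowest at 42.9, 61.3, 34.4 and 71.2 per kilobase, and overlapped with the gene above it in the WT vehicle group alone. With the longest transcript as length instead, Gas6 ranked 3 and Mfge8 ranked 2 in both testosterone groups.

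Within each library the ligands and receptors were also set against each other per kilobase, as a description with no test. These ratios, and the receptor shares below, use merged exons and shift with the length taken. With the longest transcript Tyro3 averaged 510 instead of 367 per kilobase in ARNoC prostates given testosterone, while Gas6 stayed at 576. Gas6 and Pros1 summed to 0.933 ± 0.231 times the 3 receptors in ARNoC prostates given testosterone and to 1.93 ± 0.374 times in those given vehicle (SD, n = 5 each). In WT prostates the ratio was 0.891 ± 0.164 with testosterone and 2.57 ± 0.596 with vehicle. The ranges of the ratio did not overlap between treatments, at 0.727 to 1.33 against 1.46 to 2.30 in ARNoC and 0.642 to 1.05 against 1.59 to 3.15 in WT prostates. The summed receptor level was 672 ± 87.1 and 598 ± 91.9 per kilobase in ARNoC prostates given testosterone and vehicle, and 607 ± 44.6 and 589 ± 115 in WT prostates given testosterone and vehicle. The summed ligand level was 619 ± 129 and 1165 ± 334 per kilobase in ARNoC prostates given testosterone and vehicle, and 536 ± 76.5 and 1475 ± 296 in WT prostates given testosterone and vehicle. Gas6 made up 93.3% to 95.4% of it in the means of the 4 groups.

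Among the receptors, Tyro3 made up 54.7% ± 6.38 of the summed level in ARNoC prostates given testosterone and 45.1% ± 7.74 in those given vehicle. In WT prostates its share was 58.4% ± 7.60 with testosterone and 45.8% ± 18.8 with vehicle. Axl made up 22.8% ± 7.44 with testosterone and 31.3% ± 9.18 with vehicle in ARNoC prostates, and 17.6% ± 5.22 with testosterone and 33.3% ± 14.7 with vehicle in WT prostates. The share of Mertk averaged between 20.9% and 24.1% in the 4 groups. The spread was widest in the WT vehicle group, where the Tyro3 share ran from 25.9% to 74.3% between libraries.

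**Figure D3:**
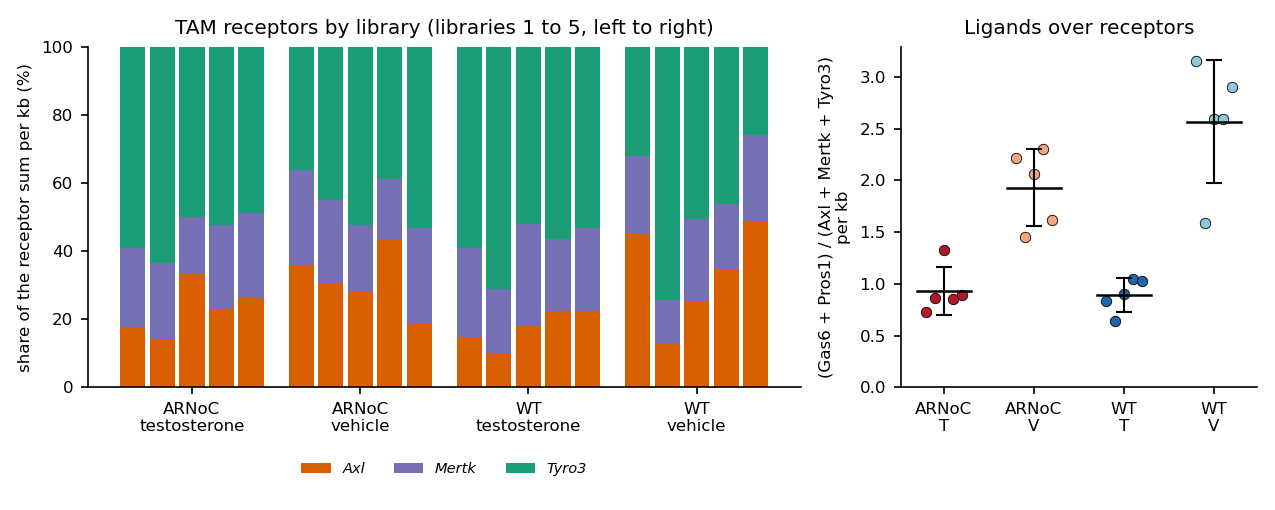
Share (%) of Axl, Mertk and Tyro3 in the summed receptor level, and the ratio of Gas6 plus Pros1 to the 3 receptors, both from normalized counts per kilobase, in each library. The ligand to receptor ratio lay at or below 1.33 in every testosterone library and at or above 1.46 in every vehicle library.

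Myeloid markers mostly fell with testosterone, while called fibroblast and smooth muscle markers went in opposite directions. Over all tested genes, 19.4% rose and 16.8% fell in ARNoC, and 20.4% rose and 18.8% fell in WT prostates. Of 16 myeloid markers in the table, 12 fell and 0 rose in ARNoC prostates and 16 fell and 0 rose in WT prostates. Their summed level ranged from 3164 to 6248 normalized counts with testosterone and from 3385 to 14335 with vehicle in ARNoC prostates, and from 1849 to 4151 with testosterone and 3960 to 21797 with vehicle in WT prostates. Of 10 fibroblast markers, 1 fell in ARNoC and 4 in WT prostates. Their sum ranged from 8578 to 23684 with testosterone and 5450 to 43921 with vehicle in ARNoC, and from 4308 to 17125 with testosterone and 7207 to 52767 with vehicle in WT prostates. Without the 3 fibroblast-poor libraries 5 fibroblast markers were called in ARNoC and 9 in WT prostates, counted without regard to direction. No myeloid or fibroblast marker was at 0 in all libraries. Of 8 lymphocyte markers 5 fell in ARNoC and 6 in WT prostates, and of 9 endothelial markers 0 were called in ARNoC and 3 fell in WT prostates. Of 8 smooth muscle markers 4 rose in ARNoC and 1 in WT prostates. Without the 3 fibroblast-poor libraries 2 smooth muscle markers were called in ARNoC and 3 in WT prostates, and 5 endothelial markers in WT prostates. These counts also leave out direction. Of 6 basal markers 3 fell in ARNoC and 2 in WT prostates, while 3 of 9 luminal markers rose in each genotype and 4 fell in ARNoC and 3 in WT prostates. Of 4 Schwann cell markers 2 fell in ARNoC and 1 in WT prostates, and of 4 urothelial markers 1 fell in ARNoC, and 1 rose and 1 fell in WT prostates.

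Library by library, Gas6 and Axl were lowest in the library with the lowest fibroblast and myeloid sums in 4 of 4 groups. They were highest in the one with the highest fibroblast sum in 3 of 4. This was not particular to these cell types. Both genes shared their lowest library with the lymphocyte and endothelial sums in 4 of 4 groups and with smooth muscle in 3. Both were also lowest where the luminal sum was highest in 3 of 4. Pros1 shared both its lowest and its highest library with the fibroblast sum in 3 of 4 groups. Tyro3 ran the other way and was lowest where the fibroblast sum was highest in 3 of 4 groups. Clu shared its lowest library with it in 0 of 4 groups. For none of these genes, Gas6 and Clu included, was the part of these markers in the result tested.

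The values of single libraries are set beside the marker sums here as a description. The part of the markers in Gas6, Clu, Axl and Pros1 was not tested. WT vehicle library 2 had fibroblast and myeloid sums of 7207 and 3960, both within the range of the WT testosterone libraries. Its lymphocyte and Schwann cell sums, at 164 and 1733, lay above all WT testosterone libraries (highest 99.8 and 1315). Its Gas6 of 3040 normalized counts lay above the highest WT testosterone library, at 1423, and its Clu of 10546 lay above the highest, at 5238. Its Axl of 502 and its Pros1 of 165 lay within the range of those libraries. ARNoC vehicle library 5 had a fibroblast sum of 5450, below all ARNoC testosterone libraries, and a myeloid sum of 3385, within their range. Its lymphocyte, Schwann cell and basal sums were 125, 1459 and 4375, above those libraries (highest 93.8, 1181 and 2137). Its smooth muscle, endothelial and luminal sums lay below all ARNoC testosterone libraries. Its Clu, at 6999, lay above all 5 of them, Gas6, at 1841, above 4 of the 5, and Axl, at 430, above 1 of the 5. Without the 3 fibroblast-poor libraries Gas6 changed by -1.04 in ARNoC (adjusted p = 5.68e-05) and by -1.46 in WT prostates (adjusted p = 3.98e-06), and Clu by -1.38 (adjusted p = 0.000539) and -0.95 (adjusted p = 0.0129).

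**Figure D4:**
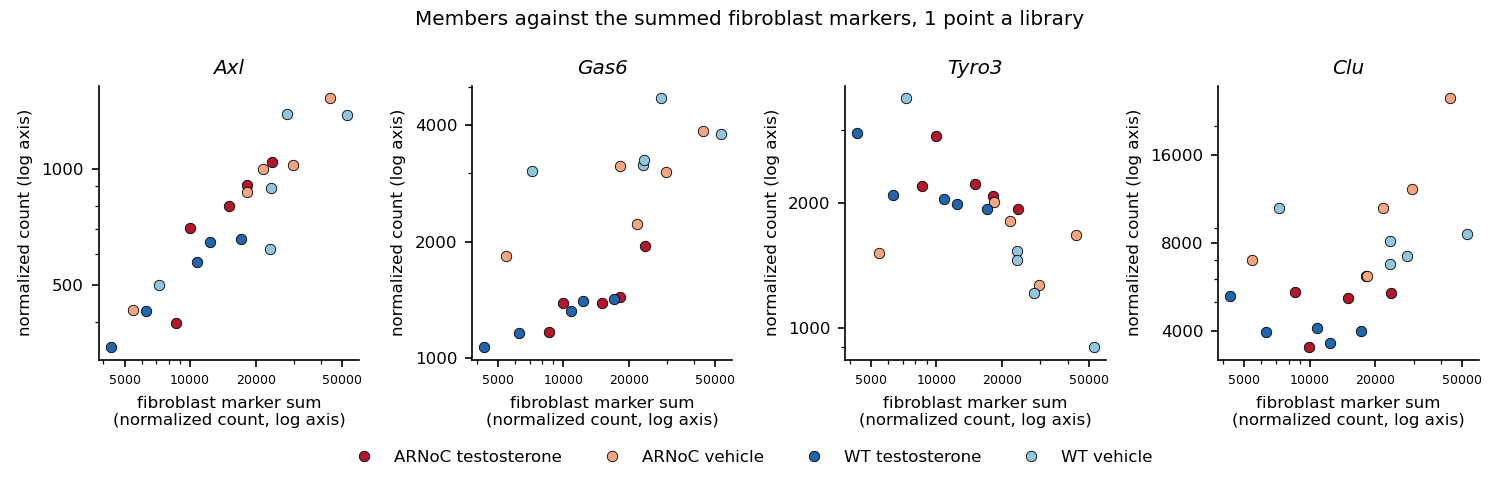
Normalized counts of Axl, Gas6, Tyro3 and Clu against the summed fibroblast markers of each library, both on log axes, with points by group. At like fibroblast sums the vehicle libraries lie above the testosterone libraries in Gas6, while in Axl the 20 libraries of all groups lie along roughly 1 band; Tyro3 runs downward, apart from ARNoC vehicle library 5, and Clu shows no single trend.

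For each gene the 3 tested genes with the most similar pattern were found, by the root-mean-square difference in centred log2 values over the 20 libraries. Nearest to Clu, which itself varied by 0.676, were Arhgef26 (0.388), Rab43 (0.389) and Tifa (0.391). Nearest to Gas6 were H2-Eb1 (0.218), Tspan4 (0.233) and Cyba (0.239), and Gas6 itself varied by 0.669. Nearest to Axl were Fgfr1 (0.154), Sema3c (0.186) and Ltbp1 (0.193), against a variation of 0.608. Nearest to Pros1, which varied most at 0.824, were Rgl1 (0.237), Lrp1 (0.245) and St3gal2 (0.247). Mertk varied by 0.270 and was nearest to Tfdp2 (0.152), Fam214a (0.166) and Gramd1b (0.186). Tyro3 varied by 0.452 and was nearest to Pip5k1b (0.277), Dnajc24 (0.286) and C630043F03Rik (0.287). Mfge8 varied by 0.290 and was nearest to Tgfbr2 (0.159), Ddx58 (0.181) and Ext1 (0.197). All libraries enter these measures together, so they mix differences between groups with those between replicates.

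Among other receptors and bridging molecules for dying cells more genes fell than rose. For this list and the 5 that follow, the share of all tested genes called was 36.2% in ARNoC (19.4% up, 16.8% down) and 39.2% in WT prostates (20.4% up, 18.8% down). Of 31 listed genes, 26 were tested, of which 3 rose and 12 fell in ARNoC prostates (median log2 change -0.83) and 3 rose and 16 fell in WT prostates (median -1.29). Havcr1, a phosphatidylserine receptor also known as Tim-1 and Kim-1, averaged 15.1 ± 12.6 normalized counts with testosterone and 109 ± 37.9 with vehicle in ARNoC prostates (7.02-fold lower, adjusted p = 0.00011). In WT prostates it averaged 18.03 ± 5.81 with testosterone and 110 ± 36.1 with vehicle (5.97-fold lower, adjusted p = 0.000255). Havcr2 in ARNoC (3.37-fold) and Cd300lf in WT prostates (4.80-fold), both receptors of immune cells, were the next largest falls. Each was called lower in both genotypes, but both were low and their libraries overlapped between treatments. Havcr2 averaged 5.95 ± 1.94 with testosterone and 20.8 ± 10.1 with vehicle in ARNoC prostates. Cd300lf averaged 4.69 ± 2.33 with testosterone and 21.8 ± 10.6 with vehicle in WT prostates. These testosterone means lie below the 10 normalized counts of the filter, which the vehicle libraries may have met for them. P2ry2, a nucleotide receptor, rose 3.26-fold in ARNoC and 2.93-fold in WT prostates, and Tulp1, reported as a bridging ligand of the TAM receptors, rose 3.07-fold and 3.44-fold. Tulp1 was low throughout, at 39.3 ± 10.6 with testosterone and 12.7 ± 1.78 with vehicle in ARNoC prostates. The myeloid sums given above moved in the same direction as these falls. C1qa, C1qb and C1qc are in both lists and fell in both genotypes, so part of this match was fixed in advance. The part of the myeloid markers in the other falls was not tested.

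The machinery of engulfment held called genes of both directions. Of 26 tested genes, 8 rose and 6 fell in ARNoC (median log2 change -0.04) and 9 rose and 10 fell in WT prostates (median 0.01). Becn1, an autophagy protein, rose 1.495-fold in ARNoC prostates and was also called higher in WT prostates. Ptk2, or focal adhesion kinase, rose 1.34-fold in ARNoC and 1.46-fold in WT prostates, and Elmo1, which activates Rac with Dock proteins, rose 1.41-fold in WT prostates. Vav3 and Gulp1 fell 2.69-fold and 2.66-fold in ARNoC prostates, and the blood cell genes Rac2 and Vav1 fell 4.56-fold and 3.79-fold in WT prostates. All 4 of these genes were called lower in both genotypes, and each is given in the genotype in which it was among the largest falls.

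Of 13 tested signals on or from dying and living cells, 3 rose and 3 fell in ARNoC and 4 rose and 2 fell in WT prostates, a share near that of all tested genes. Calr, calreticulin, a chaperone that also acts as a signal for engulfment at the cell surface, rose 3.63-fold in ARNoC and 4.00-fold in WT prostates. Tmem30a, a subunit of the flippases that keep phosphatidylserine inside, rose 1.45-fold in ARNoC and 1.40-fold in WT prostates. Sphk1, the kinase that makes sphingosine 1-phosphate, fell 5.24-fold and 6.65-fold, and Cd24a, a cell-surface signal against engulfment, fell 1.69-fold and 1.43-fold.

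Gas6 and protein S need vitamin K-dependent carboxylation, and TAM receptors are shed by proteases. Of 7 tested genes of these steps, 2 rose and 1 fell in ARNoC and 3 rose and 3 fell in WT prostates, and with so few genes nothing is read from these counts. The carboxylase Ggcx rose 1.23-fold in ARNoC and 1.38-fold in WT prostates, and Vkorc1l1, which recycles vitamin K, rose 1.30-fold and 1.38-fold. Adam17, a sheddase, fell 1.17-fold in ARNoC and 1.37-fold in WT prostates, and Furin, a proprotein convertase, fell 1.16-fold in WT prostates. Under library totals alone the calls of Ggcx, Vkorc1l1 and Ptk2 ended in both genotypes and those of Tmem30a and Elmo1 in WT prostates, and the log2 change of Ggcx in ARNoC prostates was -0.05. Leaving out 1 library ended the call of Adam17 in ARNoC prostates in 8 of 20 fits and that of Furin in 2 (WT vehicle 1 and 2). It ended that of Elmo1 in 1 (WT testosterone 4). Without the 3 fibroblast-poor libraries the log2 change of Furin was -0.16 and not called (adjusted p = 0.169).

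Of 16 tested genes of TAM signalling and the liver X receptor pathway, 1 rose and 4 fell in ARNoC prostates. In WT prostates 0 rose and 7 fell. The total called was again near the share of all tested genes, but by direction the calls leaned to falls. Over all tested genes, 19.4% rose and 16.8% fell in ARNoC, and 20.4% rose and 18.8% fell in WT prostates. Mylip, a liver X receptor target that degrades the LDL receptor, averaged 1914 ± 484 normalized counts with testosterone and 14099 ± 1501 with vehicle in ARNoC prostates (7.35-fold lower, adjusted p = 4.66e-11). In WT prostates it averaged 2849 ± 425 with testosterone and 13979 ± 2003 with vehicle (4.88-fold lower, adjusted p = 8.63e-10). Abca1, a cholesterol exporter and target of the same receptors, fell 3.64-fold in ARNoC and 3.24-fold in WT prostates. Akt1 rose 1.15-fold in ARNoC prostates, a call lost in 11 of 20 fits without 1 library and without the 3 fibroblast-poor libraries, and its log2 change was -0.15 under library totals alone.

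Of 12 tested receptors, partners and regulators of clusterin, 3 rose and 1 fell in ARNoC and 2 rose and 3 fell in WT prostates, which is also near the share of all tested genes. Hspa5, the endoplasmic reticulum chaperone BiP, rose 3.65-fold in ARNoC and 4.10-fold in WT prostates, opposite to Clu. Hsf2, a heat shock transcription factor, rose 1.80-fold in WT prostates, and Sorl1, a sorting receptor, fell 1.55-fold in ARNoC prostates. Both were called in the same direction in the other genotype. In addition, Trem2 and Apoe, both known from macrophages, fell 5.57-fold and 2.58-fold in WT prostates. Libraries of both genes overlapped between treatments there, and neither was called in ARNoC prostates. C7, a complement component that clusterin binds, rose 3.86-fold in ARNoC prostates, in libraries that overlapped between treatments. It averaged 186 ± 163 normalized counts with testosterone and 48.8 ± 37.5 with vehicle. C7 lost its call in 13 of 20 fits without 1 library and in 5 of 11 other settings, DESeq2 and the robust fit among them. In each of these 6 lists 0 genes were called between genotypes or in the interaction; without the 3 fibroblast-poor libraries 2 receptors and bridging molecules were called between genotypes with testosterone.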

How the data were processed

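Total RNA of snap-frozen ventral prostates went into Illumina TruSeq libraries, per the labels' protocols. Tools named in the submitters' processing notes are HISAT2, HTSeq, DESeq2, SAMtools 1.5 and FastQC 0.11.7, with mm10 as the build. The sources used here give no annotation, strand setting or read filter. The deposited counts are whole reads per gene symbol for 43472 genes. The deposited signal values are normalized counts, each count divided by its library's size factor, for the 23221 genes with a total of at least 4. The deposited ratio values are those size factors. The product of value and size factor equalled the count to 4.19e-09, and 100% of products were whole within 1e-06. Sample columns without a match numbered 0.

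Counts of 15261 genes (10 or more normalized counts in 5 or more of 20 libraries) were scaled with TMM and fitted with edgeR 4.0.16 (R 4.3.3), 1 mean per group, by the quasi-likelihood F-test. P-values were adjusted by Benjamini-Hochberg over all tested genes at 0.05. The 5 comparisons were testosterone against vehicle in each genotype, ARNoC against WT under each treatment, and the interaction. The test was checked on simulated counts. Alternatives were DESeq2 1.42.0, limma-voom and limma-trend (limma 3.58.1; pseudocount 1 or 5), other scalings and filters, a robust fit, the compared groups alone, and leaving out libraries. Lengths are merged exons of GENCODE M21, of the same build. By symbol, 39483 counted genes have coordinates.

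The members, the 6 pathway lists, the marker lists and the fibroblast-poor libraries were chosen with earlier results of these data known. Named genes were the 7 members, Fkbp5, the 2 called genes of each pathway list with the largest change in each direction per response, and the 3 genes most like each member. Replicate numbers follow accession order and pair nothing. Figures were drawn with matplotlib 3.10.9.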

Additional observations from a re-analysis of the deposited data

Results flagged for a closer look

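In each of 4 groups, 8 genes (the 7 members and Fkbp5) were checked for a library whose gap to its nearest neighbour was, relative to the range of the group, above Dixon's 95% critical value. Of the 32 checks 4 stood out, where chance flags about 1 in 20. WT testosterone library 2 was far above its group in Clu, at 5238 normalized counts, and in Tyro3, at 2960. WT vehicle library 2 was far above its group in Tyro3, at 3579. It was modestly below it in Mfge8, at 1512, where the rest of the group lay closely together, from 1694 to 1734. All 4 values belong to the WT libraries with the lowest fibroblast and myeloid marker sums of their groups, and the part of those markers was not tested.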

How the results depend on the processing

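No paired analysis was possible because the replicate numbers were given in accession order and the labels carry none that groups share. Clu and Gas6 stayed lower and called in both genotypes in all 20 fits without 1 library (Clu -1.40 to -0.80 in ARNoC and -1.10 to -0.86 in WT; Gas6 -1.10 to -0.79 in ARNoC and -1.55 to -1.36 in WT) and in all 11 other settings run. Scaling by library totals alone shifted the median over all genes by -0.36 in ARNoC and -0.44 in WT. It raised the genes called to 8726 in ARNoC (1178 up, 7548 down, where the TMM fit gave 2962 up and 2565 down) and 10219 in WT (1099 up, 9120 down, against 3114 up and 2871 down), and the members called in WT to 5. Under it Mertk was at -0.21 in ARNoC and -0.13 in WT, Tyro3 in WT at -0.077, Pros1 in WT at -1.43 (called), Mfge8 in ARNoC at 0.058 and in WT at -0.42. The cause of the other shifts was not tested.

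Axl in WT lost its call with limma-voom (-0.75), limma-trend (-0.77 with either pseudocount) and the robust fit (-0.83), and ranged from -0.99 to -0.66 without 1 library. Mfge8 in ARNoC lost it with median-of-ratios scaling (0.41), no filter (0.36), a minimum of 50 (0.40), the groups alone (0.37) and without the 3 fibroblast-poor libraries (0.31), and ranged from 0.27 to 0.61 without 1 library. Tyro3 in ARNoC was called with the groups alone (0.43) and without the 3 fibroblast-poor libraries (0.44), and in WT without these (0.67). Mfge8 in WT, at 0.0044, turned to -0.0045 with DESeq2, -0.0092 with limma-voom, -0.016 with limma-trend, -0.0050 with median-of-ratios scaling, -0.042 without a filter, -0.011 with a minimum of 50 and -0.011 with the groups alone. Tyro3 between ARNoC and WT with vehicle turned to 0.090 with limma-voom, 0.083 and 0.082 with limma-trend and 0.41 without the 3 fibroblast-poor libraries, and its interaction to -0.038, -0.035, -0.034 and -0.23.

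Without 1 library, the WT change ranged from -1.23 to -0.67 for Pros1, 0.18 to 0.80 for Tyro3 and -0.11 to 0.040 for Mfge8, and the ARNoC change of Tyro3 from 0.32 to 0.55. Between ARNoC and WT with vehicle the range was -0.42 to 0.15 for Pros1, -0.18 to 0.21 for Axl and -0.23 to 0.38 for Tyro3. With testosterone it was -0.022 to 0.17 for Mertk and -0.067 to 0.18 for Tyro3. The interaction ranged from -0.43 to 0.17 for Clu and -0.33 to 0.28 for Tyro3. The members called in WT ranged from 2 to 5 and in ARNoC from 2 to 4. Genes called between genotypes were 49 with vehicle (29 to 76 without 1 library, 137 with DESeq2, 19 with the groups alone) and 258 with testosterone (154 to 286 without 1 library, 493 with DESeq2, 437 under library totals). In the interaction 0 to 2 genes were called without 1 library, 24 with DESeq2, 1 with limma-trend (0 with a pseudocount of 5), 2 under library totals, 2 without a filter and 1 without the 3 fibroblast-poor libraries.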
